A study of Mus musculus with 17 samples.

Results

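Open chromatin was described at the loci of 40 lysosome and vacuolar ATPase (V-ATPase) genes in mouse bone marrow-derived macrophages (BMDMs), from 17 lists of ATAC-seq peaks. ATAC-seq marks accessible DNA through the insertion of sequencing adapters by the Tn5 transposase. The genes were chosen by function, with earlier results of these data known. They comprise 9 cathepsins, 9 other hydrolases, 6 membrane proteins, 3 soluble cofactors, 5 subunits of the V0 sector and 6 of the V1 sector of the V-ATPase, and the transcription factors Tfeb and Mitf. A locus was the gene body in the mm10 genome with 10 kb on either side. Of 34184 sites found in the whole series, 128 had their summit at these 40 of 21842 protein-coding genes. Of the 128 sites, 50 lay within 1 kb of a start site of a protein-coding transcript and are called promoter sites, and 78 are called distal.

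The cells came from male C57Bl6/J mice 6 to 12 weeks old and were differentiated for 7 days in L929-conditioned medium. Wild-type (WT) cells gave 8 lists and Nur77-KO cells gave 9. The KO was a whole-body deletion of Nr4a1, the gene of the nuclear receptor Nur77, obtained by crossing loxP-flanked Nr4a1 with CMV-Cre mice and then breeding out Cre, and the WT animals were littermates. Each genotype was left untreated (0 h) or received 100 ng/ml LPS for 1 h or 18 h, with 3 lists a group except WT at 1 h, which had 2. One of these, labelled replicate 1-2, may be a merge of 2 replicates, which the label does not settle, and it was counted as 1 list. The labels do not say whether the lists of a group came from separate mice or cultures, so p-values describe the spread between lists, which may be technical.

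Lysosomes break down proteins, lipids and sugars taken up by phagocytosis or delivered by autophagy, and their hydrolases work in the acid interior that the V-ATPase maintains. In the V-ATPase, the V1 sector splits ATP in the cytosol and the V0 sector carries protons across the membrane. Many of these genes are regulated together by TFEB, MITF and their relatives, which bind an E-box known as the CLEAR element. Macrophages depend on this compartment for the digestion of engulfed material, and LPS, a bacterial cell wall component, is a standard trigger of their inflammatory response through TLR4.

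Every list was cut to the 24389 best peaks of the shortest list and ranked by the deposited p-value, rank 1 being the strongest peak. The rank score of a site is log2(24389/rank), so that 1 unit is a 2-fold change in rank and 0 stands for no peak among the 24389. Rank scores compare the order of peaks within lists. They do not measure read density, and a fall says that a site lost rank against the other sites of its list. The lists held 26558 to 92594 entries, and the KO 18 h replicate 1 list had peaks with a median width of 135 bp against 338 to 661 bp in the other 16 lists. A promoter peak was present in all 17 lists at 6 of 8 macrophage genes, among them Spi1, Csf1r and Adgre1, and in no list at 13 of 19 genes of other cell types. Of the latter genes, Cd3d had a promoter peak in 17 lists, Col1a1 in 14, Zbtb46 in 13, Ms4a1 in 10 and Pdgfra in 1. At Nr4a1 itself a promoter peak was found in 6 of the 8 WT and 6 of the 9 KO lists. The best peak at the gene ranked 3742, 4781 and 5434.5 in WT 0 h and 11732, 13391.5 and 18588 in KO 0 h. At 1 h it ranked 3594.5 and 4971 in WT and 6613, 9346 and 7567 in KO. At 18 h it ranked 10129.5, 12154.5 and 10987.5 in WT and 23854.5 and 12164 in KO, with no peak in KO replicate 2. The exons deleted are not given in the sources used here, so this does not check the genotype.

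The E-box TCACGTG, the core of the CLEAR element, was searched on both strands. RefSeq promoter sequences (GRCm38, which is mm10; 250 bases before to 50 after the start) were matched for 32 of the 40 genes, and 10 of the 32, or 31.25%, held it. Of all 16515 protein-coding genes with such a sequence, 5.15% did. Within 100 bp of the site summits it was found at 9 of 50 member promoter sites (18%, against 4.87% of all promoter sites) and at 0 of 78 member distal sites (2.32% of all distal sites). For each of the 10 promoters the first match is shown with its flanks, 29 bases in all (23 for Ctsd), 5′ to 3′ on the strand of the gene with the E-box in capitals. Where the letters read CACGTGA the E-box is on the other strand, and TCACGTGA holds it on both.

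Atp6v0b, chr4:117887349-117887377, minus strand: gtgcgcgggggTCACGTGgggtcggcgca
Atp6v0d1, chr8:105566051-105566079, minus strand: ccctactgcggTCACGTGAgacgcggtgc
Atp6v1a, chr16:44139374-44139402, minus strand: ttttttttaaaTCACGTGAtaggcttaac
Cln3, chr7:126583368-126583396, minus strand: caaccctcaagCACGTGAtggaaggctca
Ctsa, chr2:164833749-164833777, plus strand: tgagcaaactgTCACGTGAtgcagatgct
Ctsd, chr7:142388055-142388077, minus strand: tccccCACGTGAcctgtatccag
Gaa, chr11:119267811-119267839, plus strand: tttctgtgcgaTCACGTGtttgactctga
Glb1, chr9:114401018-114401046, plus strand: ctgcttctgagTCACGTGgcctacagagg
Lamp1, chr8:13159088-13159116, plus strand: agggcaagataTCACGTGgtccagcgccc
Mcoln1, chr8:3500436-3500464, plus strand: ggtcgcgcttgTCACGTGttcagttcagg

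All 10 matches lay inside a member site. Lamp1, which encodes an abundant glycoprotein of the lysosomal membrane, held 4 E-boxes, the farthest 62 bases before its start. Gaa, the acid alpha-glucosidase of glycogen breakdown, held 1, and Atp6v1a, the catalytic subunit of the V1 sector, held the E-box once on each strand. The 120 bases that hold these matches are shown for the 3 genes, since they overlap no annotated exon.

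Lamp1 promoter, chr8:13159041-13159160, plus strand: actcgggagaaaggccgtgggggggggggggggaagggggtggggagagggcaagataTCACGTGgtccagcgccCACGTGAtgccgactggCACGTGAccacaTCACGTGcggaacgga
Atp6v1a promoter, chr16:44139329-44139448, minus strand: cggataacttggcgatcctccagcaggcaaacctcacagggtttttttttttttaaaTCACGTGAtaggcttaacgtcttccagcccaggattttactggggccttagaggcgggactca
Gaa promoter, chr11:119267765-119267884, plus strand: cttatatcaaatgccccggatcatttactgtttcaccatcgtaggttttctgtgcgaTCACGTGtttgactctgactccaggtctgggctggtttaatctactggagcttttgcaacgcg

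Of the 10 sites that hold these E-boxes, 5 fell and 1 rose at 1 h of LPS and 3 fell at 18 h by the limma test described with the LPS results, where 17.8% and 5.05% of all promoter sites fell and rose at 1 h and 12.8% fell at 18 h. The site that rose was that of Cln3, whose E-box lies 1357 bp from the summit. The M-box (TCATGTG), another motif of MITF family factors, was found at 4 of 50 member promoter sites, 8% against 1.57% of all promoter sites, and at 4 of 78 distal member sites, 5.13% against 6.79% of all distal sites. The C/EBP motif (TTGCNNAA) was found at 8 of 50 promoter sites, 16% against 5.41%, and at 15 of 78 distal sites, 19.2% against 13.6%. Other searches gave AP-1 (TGANTCA) at 24 of 78 distal member sites, 30.8% against 26.3% of all distal sites, and at 5 of 50 promoter sites, 10% against 4.86%. The NBRE (AAAGGTCA), the letters that Nur77 binds as a monomer, were found at 0 of 50 promoter and 2 of 78 distal member sites, where 0.514% of all promoter and 1.27% of all distal sites held them.

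The lysosomal genes had open promoters in almost every list. A peak with a summit within 1 kb of a start site was present for 36 to 40 of the 40 genes per list. The number was 40 ± 0 in WT 0 h (mean ± SD, n = 3), 38 ± 1.41 in WT 1 h (n = 2), 39.3 ± 0.577 in WT 18 h (n = 3), 38.7 ± 0.577 in KO 0 h (n = 3), 38.3 ± 0.577 in KO 1 h (n = 3) and 37.7 ± 1.53 in KO 18 h (n = 3). All 3 WT 0 h lists and 1 WT 18 h list held the full 40, and the other groups overlapped one another. The KO 18 h replicate 1 list, with its narrow peaks, had the fewest, 36. In all 17 lists such a peak was present at 34 members (85%), against 32.4% of all protein-coding genes, and no member lacked it throughout, against 46.9% of all genes. The 6 members without a promoter peak in some lists were Ctsk (9 lists), Gaa (13), Atp6v0d2 (13), Tpp1 (14), Ctss (15) and Mcoln1 (16).

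The strongest promoter was that of Npc2, the soluble cholesterol carrier of the lysosome, at a median rank of 306.5. Its rank was 322, 299 and 259 in WT 0 h, 1164 and 459 in WT 1 h, 311, 307 and 357 in WT 18 h, 173, 173 and 45 in KO 0 h, 108, 243 and 475 in KO 1 h, and 799, 181 and 920 in KO 18 h. The 0 h lists overlapped with those of both later times, and the differences after LPS of -1.20 ± 0.54 (SE) at 1 h and -1.18 ± 0.51 at 18 h on the log2 scale missed the threshold (limma adjusted p = 0.111 and 0.108). Next came Atp6v1d, a subunit of the central stalk, at a median rank of 478, from a site at -240 bp that lies 59 bp from the start of Eif2s1. Grn, the progranulin gene, followed at 1376.5, Npc1, the membrane partner of Npc2, at 1894.5, and Hexa, the alpha chain of beta-hexosaminidase, at 2331.5. Over the lists the rank ran from 97 to 4006 at Atp6v1d, from 590 to 5849 at Grn, from 1183 to 4085 at Npc1 and from 719 to 5710 at Hexa. A site covering the start of Cd68, a macrophage lysosomal glycoprotein, stood at 484, but its summit belongs to Eif4a1. With each deposited summit ranked on its own, an alternative chosen after seeing the data, the one 73 bp from the Cd68 start had a median rank of 933.5 and changed by -0.87 at 1 h (limma adjusted p = 0.106) and -1.24 at 18 h (0.021).

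The weakest promoters with their summit within 1 kb of a start were those of Ctsk, at a median rank of 19844.5 in the 9 lists that had it, Tpp1 (14256), Gaa (13753.5), Ctsc (12213.5) and Mcoln1 (10434). Their ranks ran from 18251 to 23496, 3640 to 22863, 10580 to 20243, 4839 to 18588 and 7360 to 15545 in the same order, and those of Tpp1 and Ctsc reached into the range of Grn. The site covering the start of Ctss, with its best summit 3219 bp inside the gene, stood at 12154.5, and the summit 19 bp from the start, ranked on its own, had a median rank of 19165 in 15 lists. Ctsk encodes the collagen-degrading cathepsin best known from osteoclasts, and Ctsc the protease that activates granule serine proteases. At Ctsk a site downstream of the gene, 12719 bp from its start, ranked far above the promoter (median rank 2264.5). The member promoter sites had a median rank of 4715, against 8165.5 for all promoter sites. The distal sites, at 17486, were close to all distal sites at 17749.

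**Figure D1:**
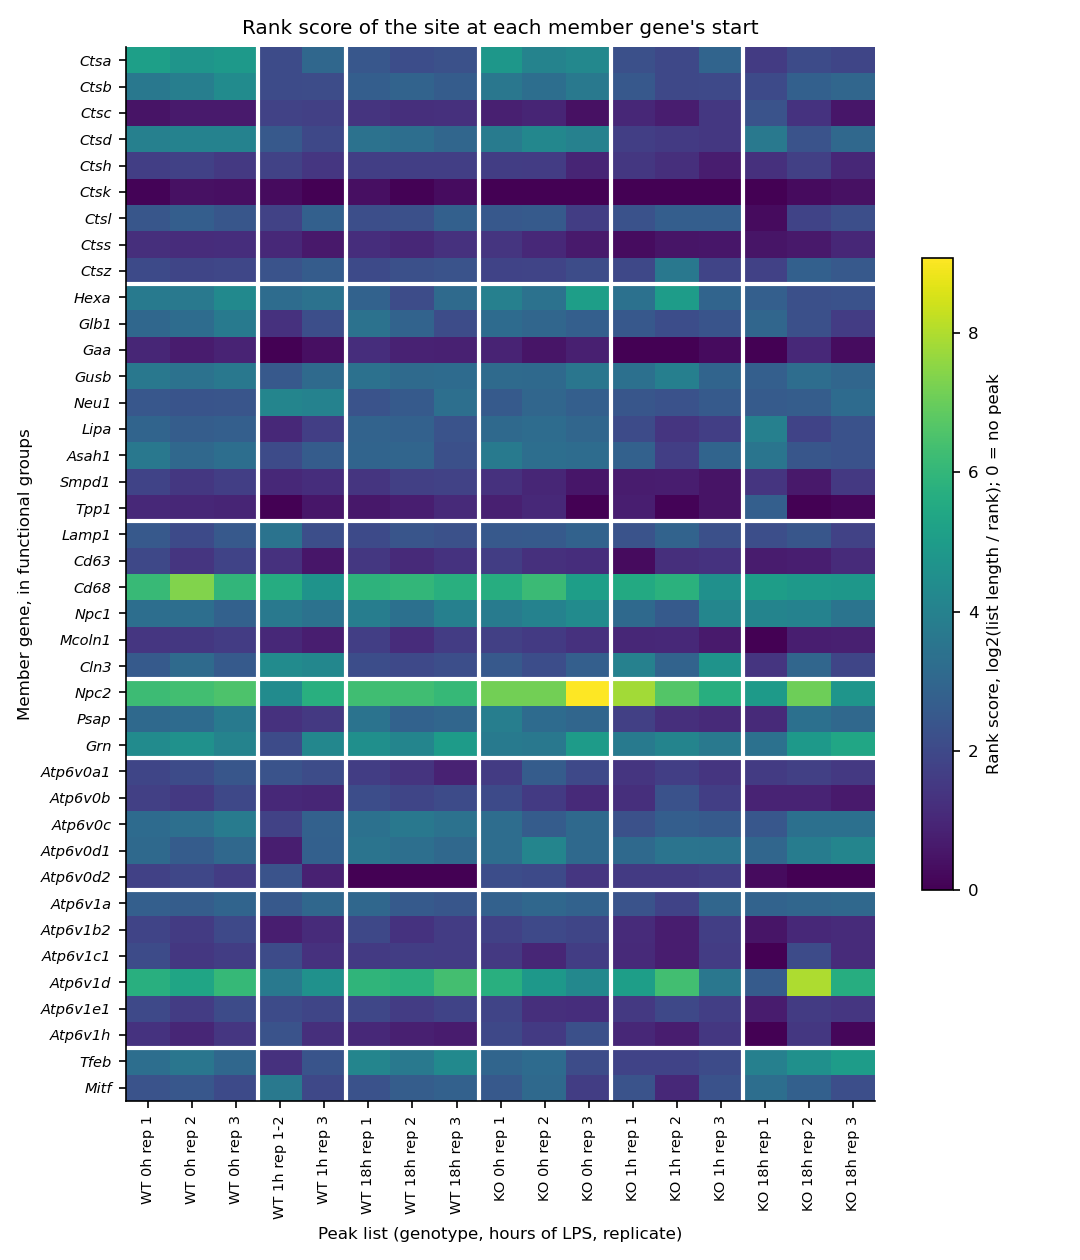
Rank score, log2(24389/rank), of the best-ranked site at the start of each of the 40 genes (rows, by functional group) in the 17 lists (columns, by genotype, hours of LPS and replicate), where 0 means no peak among the 24389 best. Npc2 and Atp6v1d stay bright throughout, Ctsa, Ctsd and Psap darken at 1 h, and Atp6v0d2 is dark in the 18 h columns.

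After 1 h of LPS, the promoters of this gene set lost rank more often than they gained. Of the 50 promoter sites 17 fell and 3 rose. Among all promoter sites of the series 17.8% fell and 5.05% rose (limma on all 34184 sites, mean over both genotypes, adjusted p under 0.05), against 34% and 6% of the members. The falling promoters were those of Ctsa, Ctsd, Glb1, Gaa, Lipa, Asah1, Cd63, Mcoln1, Psap, Atp6v0c and Atp6v1b2, 4 alternative starts of Tfeb, and 2 neighbouring genes, Taf10 and Amdhd2. Those of Ctsc, Neu1 and Cln3 rose. Of the 78 distal sites 15 fell and 11 rose, 19.2% and 14.1%, where 13.0% of all distal sites fell and 17.3% rose. The median difference was -0.46 on the log2 scale for member promoter sites and -0.27 for all promoter sites, and for distal sites -0.04 and 0. Member promoter sites were also stronger than promoter sites as a whole, and among sites with a peak in all 17 lists the share that fell was 31.7% of 41 member and 15.5% of 6192 promoter sites.

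After 18 h, 12 of the 50 promoter sites were lower and 1 was higher than at 0 h (24% and 2%, with 12.8% and 4.55% of all promoter sites). Of the distal sites 15 were lower and 8 higher (19.2% and 10.3%, with 13.0% and 13.4% of all distal sites). At both times 16 sites were lower (12.5%, against 6.85% of all sites) and 1, downstream of Neu1, was higher (0.781% against 2.69%), and 3 changed in opposite directions (2.34% against 1.2%). Of the 128 sites 62 were called at 1 h, 18 h or both, 48.4% against 41% of all sites. The rises at 1 h depended most on how a peak was assigned to a site, with 2 sites higher and 36 lower where a peak had to cover 50% of the site. A site needed a peak in 2 lists to be tested. Of the called member sites, 3 of the 14 that rose and 2 of the 32 that fell at 1 h, and 1 of the 9 and 2 of the 27 at 18 h, met that minimum only through the lists of the time at which they were higher. They had to differ and are given below by their lists alone. Each call was recomputed in up to 27 other settings (other list lengths, tests, filters and covariates, another overlap rule, and leaving out each list). It is called kept where direction and threshold held. At 1 h 12 of 46 calls, and at 18 h 11 of 36, were kept in every setting, and the settings that ended other calls are given beside the results described in detail. Over the whole series, the 2-list minimum was met only through the time with the higher value by 26.4% of the rises at 1 h. It was 11.6% of the falls at 1 h, and 23.8% of the rises and 13.6% of the falls at 18 h. The 0 h lists are shared by both comparisons, so their values are not independent.

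**Figure D2:**
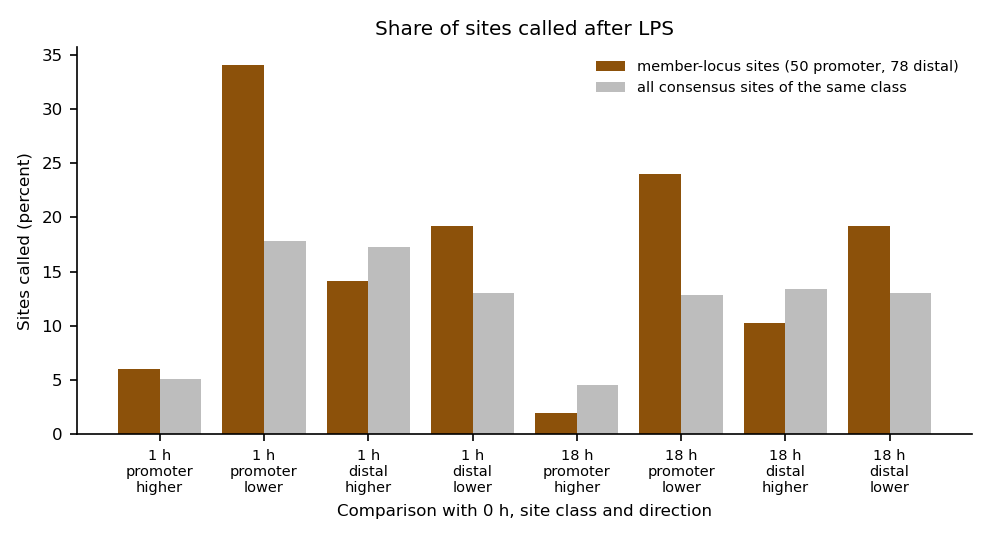
Percentage of sites called in each direction at 1 h and 18 h of LPS against 0 h, for the 50 promoter and 78 distal member sites (brown) and all sites of the same class (grey). The brown bars for lower promoter sites, 34% and 24%, stand above the grey ones at 17.8% and 12.8%.

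**Figure D3:**
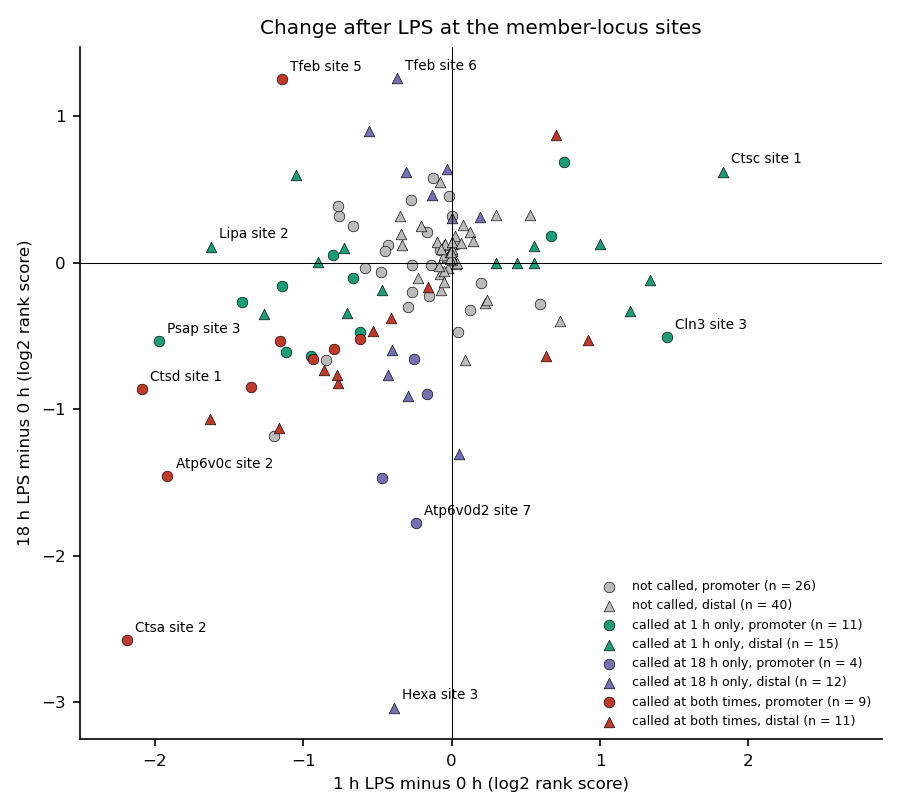
Difference from 0 h in log2 rank score at 1 h (horizontal) and 18 h (vertical) for the 128 member sites, circles for promoter and triangles for distal sites, coloured by the time at which limma called them. Ctsa site 2 lies far down at both times, Hexa site 3 only on the 18 h axis, and Tfeb site 5 at lower values for 1 h and higher values for 18 h.

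The counts of each gene group are small and are set beside the shares of all sites, of which 14.4% fell and 13.6% rose at 1 h, and 13.0% fell and 10.7% rose at 18 h. Among the cathepsins, 4 of 20 sites fell and 3 rose at 1 h (20% and 15%), and 4 fell and 1 rose at 18 h (20% and 5%). Ctsa, the serine carboxypeptidase that also protects beta-galactosidase and neuraminidase, had the largest promoter fall. Its site (chr2:164830681-164847453, best summit 207 bp upstream of the nearest Ctsa start and 152 bp from that of Neurl2) ranked 697, 909 and 818 in WT 0 h, 874, 1458 and 1288 in KO 0 h, 5849 and 3012 in WT 1 h, 5262, 6174 and 3191 in KO 1 h, 4453, 5488 and 5114 in WT 18 h, and 8178, 5717 and 6512 in KO 18 h. Every list with LPS ranked the site below every list without. The difference was -2.19 ± 0.25 (SE) at 1 h (limma adjusted p = 9.5e-06) and -2.58 ± 0.23 at 18 h (2.9e-06), both kept in all 27 settings.

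The site at Ctsd, the major aspartic protease of lysosomes, covered the gene and its start (chr7:142369558-142395482) and ranked 1564, 1505 and 1506 in WT 0 h and 1769, 1334 and 1515 in KO 0 h. It ranked 4204 and 6218 in WT 1 h, 7595, 8384 and 8803 in KO 1 h, 2266, 2486 and 3036 in WT 18 h, and 1918, 4871 and 2895 in KO 18 h. The differences were -2.09 ± 0.23 at 1 h (limma adjusted p = 9.0e-06) and -0.86 ± 0.22 at 18 h (0.0094), and the 0 h lists overlapped with neither later time. The 18 h call was kept in 26 of 27 settings, not at 50% cover (-2.06, adjusted p = 0.061). Ctsb, the cysteine protease cathepsin B, changed alike, by -1.62 ± 0.22 and -1.06 ± 0.21 (adjusted p = 5.5e-05 and 0.0016). Such sites are wide, 29225 bp at Ctsb and 25925 bp at Ctsd, and their score is that of the strongest peak inside. Ranked on its own, the summit 23 bp from the Ctsd start changed by -2.16 and -1.04 and the one 121 bp from the Ctsb start by -1.55 and -0.59, the last of these no longer called (limma adjusted p = 0.065).

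Ctsc went the other way. A site 6386 bp upstream of it (chr7:88270449-88271972) was absent from all 3 WT 0 h lists and from 2 of the KO 0 h lists, with rank 19856 in the other. It ranked 8263 and 6218 in WT 1 h and 8008, 6174 and 4744 in KO 1 h. At 18 h it ranked 13333, 12952 and 17154 in WT and 8137 and 22025 in KO, with no peak in the KO replicate 1 list. It rose by 1.83 ± 0.25 at 1 h (adjusted p = 6.6e-05), all 5 lists lying above all 6 at 0 h, and by 0.62 ± 0.24 at 18 h, which missed the threshold (0.072). The 1 h call was kept in 25 of 26 settings, not at 50% cover (0, adjusted p = 1). The Ctsc promoter changed by 0.76 ± 0.26 and 0.69 ± 0.24 (adjusted p = 0.037 and 0.051). Its 1 h call was kept in 13 of 27 settings. The losses came with the 10000 best peaks, all deposited peaks, the replicate block, the exact permutation test and 50% cover. Leaving out WT 0 h replicates 1, 2 and 3, WT 1 h replicates 1-2 and 3, KO 0 h replicates 1 and 3 or KO 1 h replicates 1 and 3 also ended it. Differences in these settings were 0.19 to 0.81, with adjusted p of 0.0557 to 0.75. In every WT list with LPS it ranked above every WT list without. The KO lists overlapped, with ranks of 13867, 12838 and 18588 in KO 0 h, 12214, 14877 and 8803 in KO 1 h, and 4839, 9785 and 16727 in KO 18 h. The site downstream of Ctsk, in the direction of Ctss, had a 1 h difference of 1.33 ± 0.38 (adjusted p = 0.016), which was not kept in 7 of 27 other settings. It was no longer called without WT 1 h replicate 1-2 (1.00, adjusted p = 0.10), with the exact permutation test (adjusted p = 0.066), all deposited peaks (0.91, 0.077), a depth covariate (0.91, 0.086), the block on replicate number (0.83, 0.20) or 15 lists (1.00, 0.074), and it turned to -2.49 (0.015) where a peak had to cover 50% of the site. Upstream of Ctss, the cathepsin of antigen processing, a site 2850 bp from the start was higher at 18 h by 0.62 ± 0.15 (adjusted p = 0.0071), kept in 22 of 25 settings, not with all deposited peaks (0.32, adjusted p = 0.47), with the exact permutation test (0.62, 0.0563) or at 50% cover (0.33, 0.12). An intronic site of Ctsh was lower at 18 h, with a difference of -0.91 ± 0.16 (7.2e-04), kept in 26 of 27 settings, not at 50% cover (-0.95, adjusted p = 0.0559).

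The 201 bases centred on the summit downstream of Ctsk are shown because they hold 1 of the 2 NBRE matches among the member sites, whose letters overlap the M-box, here on the other strand. Capitals mark the overlapping pair and AP-1.

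Ctsk site 3, chr3:95511875-95512075, plus strand: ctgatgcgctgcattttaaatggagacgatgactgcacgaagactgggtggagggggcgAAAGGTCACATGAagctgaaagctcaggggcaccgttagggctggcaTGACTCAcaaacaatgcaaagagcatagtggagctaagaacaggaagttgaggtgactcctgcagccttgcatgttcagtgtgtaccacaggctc

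The rank at this site was 3161, 3380 and 3644 in WT 0 h, 596 and 1488 in WT 1 h and 4596, 3480 and 4685 in WT 18 h. It was 5093, 2265 and 1398 in KO 0 h, 2036, 1786 and 803 in KO 1 h and 1748, 4150 and 1909 in KO 18 h. The WT lists at 1 h stood apart from the other WT lists, while the KO groups overlapped. The genotype difference was 0.21 with an adjusted p of 0.82.

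Of the 22 sites at the other hydrolases 7 fell and 3 rose at 1 h (31.8% and 13.6%), and 6 fell and 1 rose at 18 h (27.3% and 4.55%, with 13.0% and 10.7% of all sites). The Hexa locus carried the largest change of the gene set. A site in its intron, 5363 bp from the start (chr9:59543780-59545555), ranked 1021, 723 and 872 in WT 0 h, 1243, 850 and 920 in KO 0 h, 3059 and 1065 in WT 1 h, and 514, 923 and 1138 in KO 1 h. At 18 h it ranked 7987, 7738 and 7327 in WT and 5346, 12931 and 6087 in KO, below every list of the earlier times. The difference was -3.04 ± 0.30 at 18 h (limma adjusted p = 6.7e-06), while that at 1 h, -0.39 ± 0.32, was not called (0.41). The Hexa promoter was lower at 18 h, with a difference of -1.47 ± 0.36 (0.0075). Another Hexa site, 5392 bp upstream (chr9:59533534-59535214), rose at 1 h by 0.63 ± 0.15 (0.0063) and was lower at 18 h, with a difference of -0.64 ± 0.15 (0.0048). The 1 h rise was not called with all deposited peaks (0.21, 0.57) and turned to -1.20 (0.0057) where a peak had to cover 50% of the site, and the 18 h call was kept in 26 of 27 settings, not at 50% cover (-0.55, adjusted p = 0.14). Its ranks of 4204 and 4572 in WT 1 h and 5847, 4525 and 4744 in KO 1 h lay above, and those of 10823, 9305 and 9636 in WT 18 h and 13081, 10733 and 15381 in KO 18 h below, those of the same genotype at 0 h (5701 to 7167 in WT, 7714 to 8588 in KO). The intronic and upstream Hexa sites share an AP-1 motif, in capitals, though they differ in response.

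Hexa site 3, chr9:59544803-59545003, plus strand: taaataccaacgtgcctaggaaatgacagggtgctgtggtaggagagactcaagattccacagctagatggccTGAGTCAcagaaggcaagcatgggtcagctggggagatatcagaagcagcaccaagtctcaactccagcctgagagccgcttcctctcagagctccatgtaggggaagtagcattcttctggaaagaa
Hexa site 1, chr9:59534048-59534248, plus strand: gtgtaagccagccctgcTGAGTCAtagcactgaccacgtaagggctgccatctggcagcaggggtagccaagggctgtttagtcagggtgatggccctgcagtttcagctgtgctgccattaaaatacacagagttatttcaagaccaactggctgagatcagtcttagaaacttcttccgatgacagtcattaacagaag

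Lipa, the acid lipase that frees cholesterol and fatty acids from lipoprotein lipids, fell at 1 h and had no call at 18 h. Its promoter ranked 3219, 3785 and 3622 in WT 0 h and 2835, 2623 and 3088 in KO 0 h, 11828 and 7656 in WT 1 h and 5847, 9346 and 7567 in KO 1 h, and 3306, 3480 and 4893 in WT 18 h and 1586, 6804 and 5024 in KO 18 h. No 1 h list overlapped the 0 h lists, and the 18 h lists spanned them. The differences were -1.41 ± 0.31 (adjusted p = 0.0032) and -0.27 ± 0.29 (0.57), the former kept in 26 of 27 settings, not at 50% cover (-0.98, adjusted p = 0.22). An intronic Lipa site changed by -1.62 ± 0.28 at 1 h (4.9e-04) and by 0.11 at 18 h (0.84). The 1 h call was kept in 24 of 26 settings, not with the 10000 best peaks (-0.70, adjusted p = 0.069) or at 50% cover (-0.37, 0.39). Promoters of Glb1, the lysosomal beta-galactosidase, Gaa and Asah1, the acid ceramidase, fell at 1 h, with differences of -1.12, -0.66 and -0.95 (adjusted p = 0.010, 0.012 and 0.027), and were not called at 18 h. The 1 h call of Glb1 was kept in 24 of 27 settings, not with a depth covariate (-0.84, adjusted p = 0.0564), with the replicate block (-0.79, 0.11) or without WT 1 h replicate 1-2 (-0.90, 0.063). That of Gaa was kept in 22 of 25 settings, not with the replicate block (-0.57, adjusted p = 0.11), at 50% cover (0, 1) or without WT 1 h replicate 1-2 (-0.57, 0.065). That of Asah1 was kept in 19 of 27 settings. It was lost with a depth covariate, the replicate block, 50% cover or 15 lists. Without WT 0 h replicate 1, WT 1 h replicate 1-2, KO 0 h replicate 1 or KO 1 h replicate 2 it was lost too. The values there ran from -1.46 to -0.64, with adjusted p of 0.0507 to 0.14. The Glb1 site lies 85 bp from the start of Tmppe, another gene. Gusb and Smpd1, for beta-glucuronidase and acid sphingomyelinase, had no called site.

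At Neu1, the lysosomal sialidase, the mean over genotypes hid unlike values. The promoter (chr17:34930699-34932796) ranked 4363, 4781 and 4665 in WT 0 h and 1376 and 1488 in WT 1 h, but 4072, 3051 and 3596 in KO 0 h and 4476, 5022 and 4099 in KO 1 h. The WT lists of 1 h ranked above all WT lists of 0 h. The KO lists of 1 h ranked below all KO lists of 0 h, the closest at 4099 against 4072. The mean rise of 0.67 ± 0.21 was called (limma adjusted p = 0.025), and the difference between the genotypes, -2.03 ± 0.41, was not (limma adjusted p = 0.059) and passed the threshold in 4 of 27 other settings. Those 27 include the exact permutation test, which was void for such differences. The call of the mean rise was kept in 16 of 27 settings. The call ended with all deposited peaks, only sites listed throughout, a depth covariate, the replicate block or the exact permutation test. Omission of WT 0 h replicates 2 and 3, WT 1 h replicate 1-2, KO 0 h replicate 1 or KO 1 h replicate 3 had the same result. These gave 0.25 to 0.67, with adjusted p of 0.0501 to 0.57, and the direction turned at 50% cover (-2.13, 0.027). A site 6894 bp from the Neu1 start, downstream of the gene, was higher at 1 h by 0.70 ± 0.21 (0.023) and at 18 h by 0.87 ± 0.20 (0.0054). Its 1 h call was lost under 9 of 27 other settings, among them without WT 1 h replicate 1-2 (0.53, adjusted p = 0.12), WT 0 h replicate 3 (0.67, 0.055) or KO 1 h replicate 3 (0.59, 0.054), and the rise turned to -0.27 where a peak had to cover 50% of the site. The 18 h call was lost with the 10000 best peaks (0.47, 0.057), all deposited peaks (0.53, 0.19) and 50% cover (0.37, 0.57).

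Of 16 sites at the 6 membrane protein genes 2 fell and 1 rose at 1 h (12.5% and 6.25%), and 1 fell and 1 rose at 18 h (6.25% each), all shares below those of all sites. The Cln3 promoter (Cln3 encodes the membrane protein lost in juvenile Batten disease) rose at 1 h by 1.45 ± 0.33 (adjusted p = 0.0036), with ranks of 4123, 2743 and 4147 in WT 0 h, 4206, 5494 and 3596 in KO 0 h, 1164 and 1318 in WT 1 h, and 1521, 3321 and 969 in KO 1 h. All 1 h lists except KO 1 h replicate 2 stood above all 0 h lists. The rise was not called with all deposited peaks (1.03, adjusted p = 0.082) and turned to -1.13 (0.23) where a peak had to cover 50% of the site. The promoters of Cd63, a tetraspanin, and Mcoln1, the TRPML1 calcium channel, fell at 1 h, each by 0.62 on the log2 scale (0.048 and 0.021), and Mcoln1 stayed lower at 18 h (-0.52, 0.041). The Cd63 call was kept in 13 of 27 settings. It did not hold with a depth covariate, the exact permutation test or 50% cover. Leaving out WT 0 h replicates 1 and 3, WT 1 h replicate 3, WT 18 h replicates 1, 2 and 3, KO 0 h replicates 1, 2 and 3, KO 1 h replicate 1 or KO 18 h replicate 2 also ended it. Differences in these settings were -0.88 to -0.43, with adjusted p of 0.0506 to 0.22. The Mcoln1 call at 1 h was kept in 20 of 26 settings. The losses came with a depth covariate, the replicate block and 50% cover. Without WT 0 h replicate 3, WT 1 h replicate 3 or KO 0 h replicate 1 it was lost too. The values there ran from -0.84 to -0.55, with adjusted p of 0.0505 to 0.088. At 18 h it was kept in 10 of 26 settings. It was lost with the 10000 best peaks, all deposited peaks, a depth covariate, the replicate block, the exact permutation test, 50% cover or 15 lists. Omission of WT 0 h replicates 1, 2 and 3, WT 18 h replicates 2 and 3, KO 0 h replicates 1 and 2, KO 1 h replicate 1 or KO 18 h replicate 1 had the same result. These gave -0.92 to -0.11, with adjusted p of 0.05002 to 0.56. The Lamp1 promoter, with its 4 E-boxes, was not called at either time, with 0.13 at 1 h (0.78) and -0.32 at 18 h (0.35). Of the 9 sites at the soluble cofactor genes 3, all at Psap, fell at 1 h (33.3%), and 1 fell and 1 rose at 18 h (11.1% each). Psap, the precursor of the saposins that help degrade sphingolipids, had a 1 h difference of -1.97 ± 0.35 at its promoter (6.6e-04), where ranks were 2849, 2679 and 1837 in WT 0 h and 1631, 2724 and 3088 in KO 0 h, against 9850 and 8666 in WT 1 h and 7347, 10441 and 11553 in KO 1 h. The 1 h lists lay wholly below, and the call was kept in 26 of 27 settings, not at 50% cover (-1.79, adjusted p = 0.14). At 18 h it ranked 2213, 3356 and 3036 in WT and 11542, 2385 and 2895 in KO, and the difference of -0.54 was not called (0.28). A site downstream of Npc2, 20901 bp from its start, was higher at 18 h by 0.90 ± 0.25 (0.016), kept in 25 of 27 settings, not with all deposited peaks (0.57, adjusted p = 0.23) or at 50% cover (0.99, 0.12). So was one downstream of Npc1, with 0.64 ± 0.14 (0.0036), kept in 23 of 25 settings, not with all deposited peaks (0.38, adjusted p = 0.39) or at 50% cover (0.18, 0.29).

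Among the V0 subunits 6 of 23 sites fell and 1 rose at 1 h (26.1% and 4.35%), and 7 fell and 1 rose at 18 h (30.4% and 4.35%, with 13.0% and 10.7% of all sites). Atp6v0d2, the d subunit known from osteoclasts and macrophages, accounted for 3 of those that fell at 1 h and 3 at 18 h. Its promoter (chr4:19920824-19923092) ranked 7172, 6330 and 7920 in WT 0 h and 5531, 5907 and 9065 in KO 0 h, and 4926 and 13626 in WT 1 h and 8291, 8384 and 7567 in KO 1 h. At 18 h it ranked 24059 in WT replicate 1 and 20182 in KO replicate 1, and had no peak in the other 4 lists. The promoter thus overlapped between 0 h and 1 h (-0.24 ± 0.23, adjusted p = 0.48) and was lower in every list at 18 h (-1.78 ± 0.21, 3.0e-05), kept in 25 of 26 settings, not at 50% cover (-0.95, adjusted p = 0.11). A site downstream of it, 47251 bp from the start (chr4:19868703-19870756), was lower at both times, with differences of -1.16 ± 0.17 and -1.12 ± 0.16 (8.6e-05 and 1.0e-04). Its ranks of 6647 to 9065 at 0 h became 13130 or more in every later list but KO 18 h replicate 1, which had no peak there. An intronic Atp6v0d2 site among those counted was listed in all 6 lists of 0 h and in 1 later list. The sequence at the downstream summit held AP-1 and a C/EBP motif (TTGCNNAA), in capitals.

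Atp6v0d2 site 1, chr4:19869589-19869789, plus strand: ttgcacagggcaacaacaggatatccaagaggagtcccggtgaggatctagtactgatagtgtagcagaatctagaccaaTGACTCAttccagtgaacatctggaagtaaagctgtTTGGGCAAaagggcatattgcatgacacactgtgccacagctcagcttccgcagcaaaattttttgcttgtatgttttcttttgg

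The paralogue Atp6v0d1, expressed in most cells, kept its promoter at a median rank of 2818, and no call was made there at either time. Only an intronic site of it, seen in 8 lists, was higher at 18 h (0.31, adjusted p = 0.043), kept in 9 of 25 settings. The call ended with all deposited peaks, a depth covariate, the exact permutation test, 50% cover or single summits. Leaving out WT 0 h replicates 1, 2 and 3, WT 18 h replicates 1 and 3, KO 0 h replicates 1, 2 and 3, KO 1 h replicate 1 or KO 18 h replicates 1 and 3 also ended it. Differences in these settings were 0.073 to 0.32, with adjusted p of 0.0531 to 0.89. The difference between these paralogues was not tested. Atp6v0c, the proteolipid of the rotor ring, had a 1 h difference of -0.80 ± 0.25 at its promoter (0.026), kept in 19 of 27 settings. It did not hold with a depth covariate, the replicate block, 50% cover or 15 lists. Without WT 0 h replicate 3, WT 1 h replicate 1-2, KO 0 h replicate 1 or KO 1 h replicate 1 it was lost too. The values there ran from -2.15 to -0.54, with adjusted p of 0.0574 to 0.15. The neighbouring promoter of Amdhd2 changed by -1.92 and -1.46 (8.9e-04 and 0.0051). Its 1 h call was kept in 26 of 27 settings, not at 50% cover (-2.65, adjusted p = 0.13), and its 18 h call kept in 26 of 27 settings, not at 50% cover (-1.88, adjusted p = 0.31). Upstream of Atp6v0a1, the a1 subunit of the V0 sector, a site 6237 bp from the start was lower at 18 h, with a difference of -1.31 ± 0.22 (4.1e-04), kept in all 27 settings. The promoter had -0.66 ± 0.20 (0.023), kept in 21 of 27 settings. The losses came with list weights, the exact permutation test and 50% cover. Omission of WT 0 h replicate 3, WT 18 h replicate 3 or KO 0 h replicate 2 had the same result. These gave -1.12 to -0.52, with adjusted p of 0.0508 to 0.075. A site in an exon 50564 bp from the start was lower at both times, with -0.53 ± 0.09 (5.3e-04) and -0.46 ± 0.09 (0.0012). An intronic site was listed only in 1 WT and 3 KO lists of 1 h.

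Among the V1 subunits 3 of 20 sites fell and 2 rose at 1 h (15% and 10%), and 4 fell and 2 rose at 18 h (20% and 10%, with 13.0% and 10.7% of all sites). The Atp6v1b2 promoter, for the B subunit found in most tissues, was lower at both times (-0.79 and -0.59, adjusted p = 0.0092 and 0.037), the 18 h call being kept in 14 of 27 settings. It was lost with all deposited peaks, a depth covariate, the exact permutation test, 50% cover or 15 lists. Leaving out WT 0 h replicates 1 and 3, WT 18 h replicates 2 and 3, KO 0 h replicates 1, 2 and 3 or KO 18 h replicate 1 also ended it. Differences in these settings were -0.92 to -0.36, with adjusted p of 0.0519 to 0.55. The Atp6v1h promoter, for a regulatory subunit, was lower at 18 h (-0.89, 0.021), kept in 22 of 27 settings. The call ended with the 10000 best peaks, the exact permutation test or 50% cover. Without WT 0 h replicate 3 or KO 0 h replicate 3 it was lost too. The values there ran from -0.90 to -0.32, with adjusted p of 0.05 to 0.15. An Atp6v1a intronic site (chr16:44119207-44120621) fell at 1 h, with a difference of -0.90 ± 0.13 (1.2e-04), and was not called at 18 h (0.00). The 1 h call was kept in 25 of 26 settings, not with the 10000 best peaks (-0.0039, adjusted p = 1). A site 2019 bp from an Atp6v1e1 start, the E subunit of the peripheral stalk, rose at 1 h by 0.92 ± 0.18 (0.0014). Its ranks went from 9322 to 12738 at 0 h to 5849 and 6218 in WT 1 h and 6391, 4085 and 7958 in KO 1 h, without overlap. That call was kept in 24 of 26 settings, not with all deposited peaks (0.50, adjusted p = 0.23) or at 50% cover (0.41, 0.39). It was lower at 18 h (-0.53 ± 0.17, 0.035), kept in 14 of 26 settings. It did not hold with the 10000 best peaks, the exact permutation test or 50% cover. Omission of WT 0 h replicates 1, 2 and 3, WT 18 h replicates 1, 2 and 3, KO 0 h replicates 1 and 2 or KO 18 h replicate 2 had the same result. These gave -0.77 to -0.017, with adjusted p of 0.0505 to 1. Another intronic Atp6v1a site was higher at 1 h, with 0.56 ± 0.16 (0.019). That call was lost without WT 0 h replicate 1 (0.51, adjusted p = 0.0504), WT 1 h replicate 3 (0.41, 0.099) or KO 0 h replicate 1 (0.50, 0.0505), with depth as a covariate (0.53, 0.059) and with all deposited peaks (0.26, 0.57), and the difference was -0.10 at 50% cover. A site in an Atp6v1e1 exon was lower at 1 h, with -0.70 ± 0.15 (0.0025). At 18 h an intronic Atp6v1h site was higher, with 0.46 ± 0.10 (0.0024), kept in 23 of 25 settings, not with all deposited peaks (0.21, adjusted p = 0.63) or at 50% cover (0.054, 0.74). A site downstream of Atp6v1e1 was listed in all 3 WT and 1 of 3 KO lists of 18 h and in no other. A site 1688 bp upstream of Atp6v1c1 was listed in 9 of the 11 lists of 0 h and 1 h and in none of 18 h, with -0.77 ± 0.16 (0.0023), kept in 24 of 25 settings, not at 50% cover (-0.62, adjusted p = 0.0564). The promoters of Atp6v1a, Atp6v1c1, Atp6v1d and Atp6v1e1 had no call at either time.

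At the transcription factor genes 11 of 18 sites were called at 1 h, 7 lower and 4 higher (61.1% in all, against 28.1% of all sites), and 6 at 18 h, 4 lower and 2 higher (33.3% against 23.7%). These include 3 Mitf sites at 1 h and 1 at 18 h that met the 2-list minimum only through the time at which they were higher. At Tfeb 5 sites, 4 of them at alternative starts, fell at 1 h. The most significant change was 837 bp from a start (chr17:47759142-47760641), where ranks were 8432, 7409 and 8463 in WT 0 h and 10416, 11350 and 11660 in KO 0 h. At 1 h this site was listed in WT replicate 3 alone, at rank 23650. At 18 h it ranked 19282, 22126 and 17767 in WT and 17260, 14306 and 13105 in KO. The difference was -1.35 ± 0.12 at 1 h (limma adjusted p = 1.5e-06) and -0.85 ± 0.12 at 18 h (1.0e-04), and 0 h lists did not overlap later ones.

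A Tfeb site 121 bp from another start was lower at 1 h with -1.15 ± 0.20 (4.1e-04), kept in 25 of 26 settings, not with the 10000 best peaks (-0.086, adjusted p = 0.32). Its 18 h difference was -0.53 ± 0.18 (0.048), kept in 8 of 26 settings. The losses came with the 10000 best peaks, list weights, the exact permutation test, 50% cover and 15 lists. Leaving out WT 0 h replicates 1, 2 and 3, WT 18 h replicates 1, 2 and 3, KO 0 h replicates 1 and 3, KO 1 h replicates 1, 2 and 3 or KO 18 h replicates 1 and 2 also ended it. Differences in these settings were -0.56 to -0.086, with adjusted p of 0.0558 to 0.34. The site 7406 bp from the last start was lower at 1 h with -1.05 ± 0.24 (0.0037), kept in 24 of 26 settings, not with the 10000 best peaks (-0.59, adjusted p = 0.0509) or with the replicate block (-0.77, 0.058).

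Farther along Tfeb, a single start site changed in opposite directions at 1 h and 18 h. The start site at chr17:47765841-47770510 ranked 2517, 2073 and 3014 in WT 0 h and 3123, 2724 and 5637 in KO 0 h, 9850 and 4763 in WT 1 h and 6849, 6805 and 5813 in KO 1 h, and 1380, 1925 and 1239 in WT 18 h and 1586, 1035 and 757 in KO 18 h. The differences were -1.14 ± 0.28 at 1 h (limma adjusted p = 0.0060) and 1.25 ± 0.26 at 18 h (0.0024), all 18 h lists lying above all 0 h lists. The 1 h call was lost with the replicate number as a block (-0.88, adjusted p = 0.078), the 18 h call was lost with all deposited peaks (0.92, 0.11), and the 18 h rise turned to -1.45 (0.18) where a peak had to cover 50% of this site of 4670 bp. An intronic site (chr17:47783933-47785039) was higher at 18 h by 1.26 ± 0.17 (7.0e-05). It ranked 18040, 15701 and 17316 in WT 0 h and 21202 and 16815 in KO 0 h with no peak in KO replicate 2, and 7582, 9474 and 6974 in WT 18 h and 5346, 10733 and 7951 in KO 18 h, again without overlap. These Tfeb sites are shown with AP-1 and C/EBP letters in capitals.

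Tfeb site 5, chr17:47768820-47769020, plus strand: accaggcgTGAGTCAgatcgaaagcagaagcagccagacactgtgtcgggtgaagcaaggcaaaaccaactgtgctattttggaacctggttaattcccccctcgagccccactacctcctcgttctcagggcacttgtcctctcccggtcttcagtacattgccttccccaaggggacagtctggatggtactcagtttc
Tfeb site 6, chr17:47784511-47784711, plus strand: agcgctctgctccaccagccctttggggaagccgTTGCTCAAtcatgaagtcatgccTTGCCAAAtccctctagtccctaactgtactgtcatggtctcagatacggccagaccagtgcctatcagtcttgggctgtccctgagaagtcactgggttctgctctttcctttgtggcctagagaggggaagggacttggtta

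At Mitf, the relative of Tfeb best known from pigment cells and osteoclasts, 4 of 11 sites rose and 2 fell at 1 h, all of them in introns, and its 2 promoter sites were not called. A site 21975 bp from a start (chr6:97828817-97830332) ranked 19563, 19511 and 17316 in WT 0 h, 19732, 19856 and 20689 in KO 0 h, 8263 and 9052 in WT 1 h, and 14760, 9346 and 9266 in KO 1 h. All 1 h lists stood above all 0 h lists (1.00 ± 0.15, adjusted p = 1.5e-04), and at 18 h the difference was 0.13 (0.58). The 1 h call was kept in 24 of 26 settings, not with all deposited peaks (0.58, adjusted p = 0.14) or at 50% cover (0.70, 0.0518). A stronger site 13717 bp from a start rose by 1.20 ± 0.35 (0.017), kept in 24 of 27 settings, not with all deposited peaks (0.78, adjusted p = 0.24), at 50% cover (0, 1) or without WT 1 h replicate 3 (0.79, 0.11). A site 5361 bp from a start was listed in 4 lists of 1 h and 1 KO list of 18 h, and one at 21142 bp in 4 lists, all of 1 h. The site at 48828 bp was listed in 5 of the 6 lists of 0 h and in 1 later list. The site at 50828 bp was lower at both times, with -0.86 ± 0.15 (6.9e-04) and -0.73 ± 0.15 (0.0018), the latter kept in 23 of 25 settings, not with the exact permutation test (-0.73, adjusted p = 0.0563) or at 50% cover (-0.50, 0.082). The site at 21975 bp held AP-1 and that at 13717 bp an NF-kB motif, in capitals.

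Mitf site 4, chr6:97828933-97829133, plus strand: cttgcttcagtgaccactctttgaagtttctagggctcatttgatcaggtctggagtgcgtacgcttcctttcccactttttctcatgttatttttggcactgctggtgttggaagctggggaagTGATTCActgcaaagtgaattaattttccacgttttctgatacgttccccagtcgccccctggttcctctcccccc
Mitf site 2, chr6:97820675-97820875, plus strand: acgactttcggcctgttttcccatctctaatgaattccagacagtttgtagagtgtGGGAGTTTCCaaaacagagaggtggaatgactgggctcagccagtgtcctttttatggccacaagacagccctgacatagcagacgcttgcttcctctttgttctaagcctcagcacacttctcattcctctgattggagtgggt

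AP-1 letters were found at 8 of the 14 member sites that rose at 1 h and at 5 of the 32 that fell. Over all sites the shares were 37.6% of those that rose and 8.98% of those that fell. Of the 14 and the 32, 3 and 2 met the 2-list minimum only through the time at which they were higher. Among the former, Mitf site 8 held AP-1 letters. Ctsk site 3, Hexa site 1, Neu1 site 3, Cln3 site 3 and Atp6v1a site 1 also held them. These 1 h rises reversed under the other overlap rule, while Mitf sites 4 and 8, both with AP-1, kept direction but lost the call. The CLEAR-type E-box lay within 100 bp of the summit at 0 of the 14 and 3 of the 32, against 1.76% and 3.95% over all sites. At 18 h it was found at 0 of the 9 higher and 5 of the 27 lower member sites, against 2.54% and 3.04% over all sites. AP-1 was found at 3 of these 9 and 6 of these 27, against 26.7% and 16.3%. Of the 9 and the 27, 1 and 2 met the 2-list minimum only through the time at which they were higher.

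**Figure D4:**
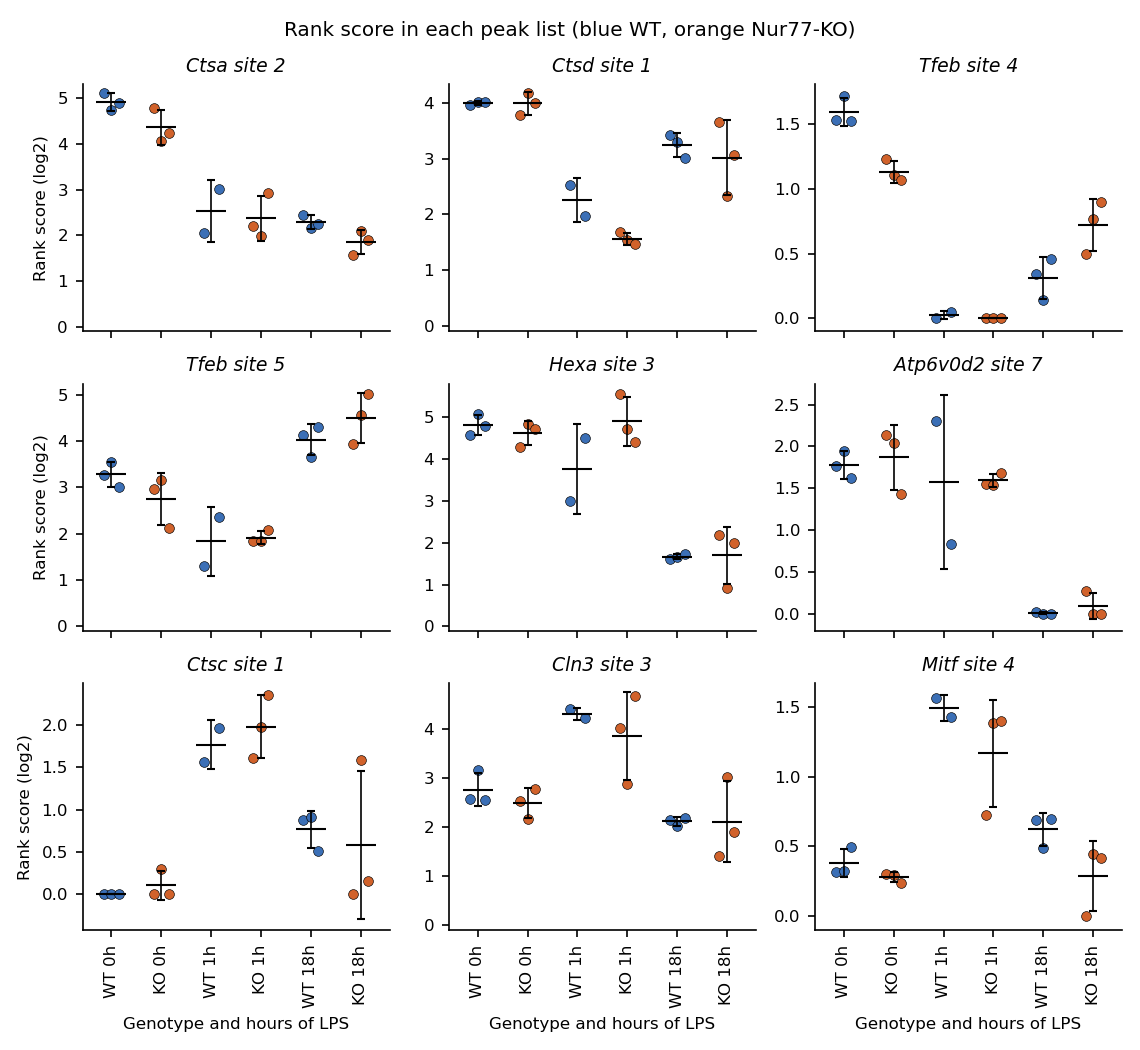
Rank score (log2, vertical) in each list at 9 member sites, by genotype and hours of LPS (horizontal), blue for WT and orange for Nur77-KO, with the group mean and SD as bars. At Ctsa site 2 all LPS lists lie below the 0 h lists, at Hexa site 3 and Atp6v0d2 site 7 all 18 h lists do, and Tfeb site 5 falls at 1 h and is highest at 18 h.

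**Figure D5:**
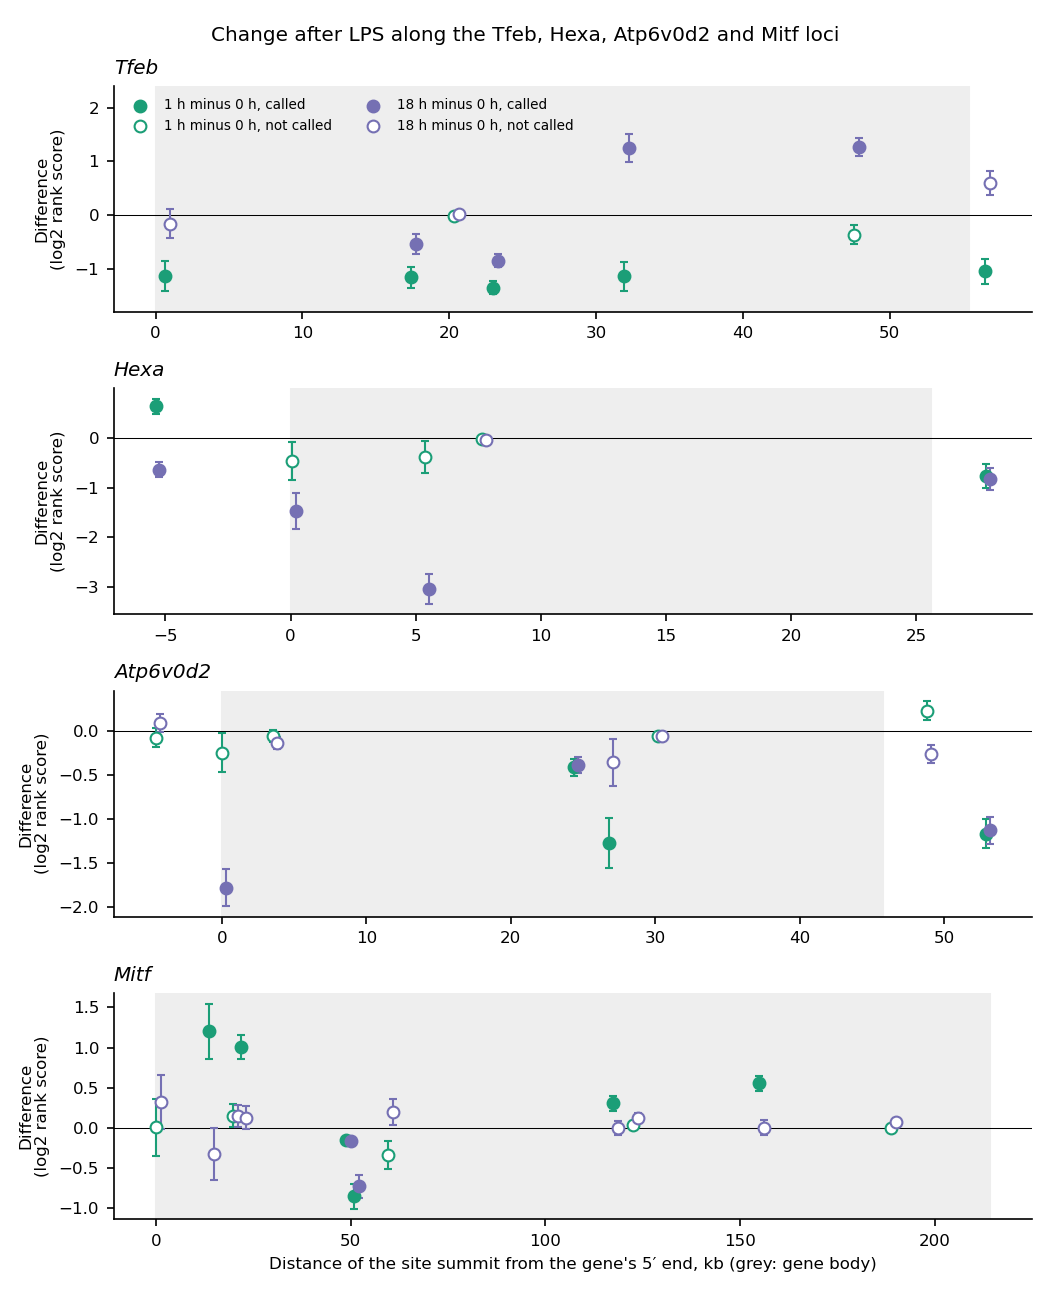
Differences from 0 h in log2 rank score with their SE (vertical) against the distance of each site from the 5′ end of the gene in kb (horizontal, gene body in grey) at Tfeb, Hexa, Atp6v0d2 and Mitf, filled where called, the 18 h points being drawn slightly to the right of the 1 h points. Along Tfeb the 1 h points lie at or below 0, and the 18 h points rise above it in the distal part of the gene.

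The comparison of genotypes gave no call at the lysosomal loci. Averaged over the 3 times, 0 of 128 sites differed between Nur77-KO and WT by limma, with 16 at an unadjusted p under 0.05 (12.5%, against 9.85% of all sites). The exact permutation test, whose smallest p was 0.00025, called 0 of all 34184 sites, so its 0 among the members adds nothing. Over the series 0.097% of promoter sites were higher and 0.175% lower in KO, and of distal sites 0.214% were higher and 0.444% lower, so few calls were made anywhere. The promoter of Smpd1 differed by -0.56 ± 0.16 (0.166) and the site downstream of Tfeb by 0.60 ± 0.19 (0.233). For the difference between genotypes in the 1 h response 0 of 128 were called (11 or 8.59% unadjusted, against 7.1% of all sites, of which 0.287% were called), led by the Neu1 promoter described above. For the 18 h response it was 0 as well (5 or 3.91% unadjusted, against 6.66% of all sites, of which 0.0497% were called), and the Tfeb site 837 bp from a start had 0.87 ± 0.23 (0.32), limma adjusted p in parentheses. The exact test of these differences cannot give a p below 0.005, which is too large to pass the adjustment over 34184 sites unless very many sites change, so it was void here. A p that misses the threshold does not show that the genotypes are alike. Without WT 1 h replicate 3, which leaves WT 1 h with a lone list assumed to vary like the other groups, 6 sites differed between genotypes, 4 higher and 2 lower in KO, and 4 differed in the 1 h response (4.72% and 3.15%, against 3.56% and 3.69% of all sites). Of these, 2 in each count, the Atp6v0a1 and Mitf sites listed only at 1 h, entered through lists of 1 h alone and are no support for a genotype difference.

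In 34 further lysosome genes that are not members, such as Lamp2, Lgmn and Tcirg1, 15 of 48 promoter sites were lower and 0 higher at 1 h (31.25% and 0%, against 17.8% and 5.05% of all promoter sites), and 5 were lower and 0 higher at 18 h (10.4% and 0%, against 12.8% and 4.55%). The excess of lower promoter sites at 1 h was thus not seen at 18 h in these genes. Of their 61 distal sites 9 were lower and 2 higher at 1 h (14.8% and 3.28%, against 13.0% and 17.3% of all distal sites), and 5 lower and 9 higher at 18 h (8.20% and 14.8%, against 13.0% and 13.4%).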

How the data were processed

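ATAC-seq peaks were deposited as 1 list per sample for 17 samples (8 WT and 9 Nur77-KO). The authors trimmed reads with cutadapt 2.6, aligned them to mm10 with the snakeATAC pipeline, and removed mitochondrial, duplicate and low-quality reads. The peak caller is not named in the sources used here. Entry names carry a mapping quality of 20 and a q-value limit of 0.001. Each deposited entry holds a display score, a fold enrichment, a −log10 p-value and a −log10 q-value. Only the −log10 p-value was used, to rank peaks within a list, because it grows with depth. Depth in reads is unknown. The deposited entries per list, 26558 to 92594, limit the precision.

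Entries with the same interval were joined. The 24389 best peaks of each list (midranks for ties, which held up to 13.9% of a list at its end) were merged, and merged sites seen in 2 or more lists were kept. Sites were assigned by their best summit to genes of GENCODE M21 with 10 kb on either side. Rank scores, log2(24389/rank) and 0 with no peak, were fitted with limma 3.58.1 (R 4.3.3, group means of all 17 lists, moderated variance with a trend) over all 34184 sites, with Benjamini-Hochberg adjustment and calls at an adjusted p under 0.05. An exact permutation test within genotype or time was the second test. The fit was also run on simulated data, and the outcome of that run is not reported here. Named were, per contrast, the called member sites up to the 12 of smallest adjusted p in each direction, and the 5 best and 5 worst promoters; other sites are named to complete a gene's account and were chosen after their values were seen. The members and lists were chosen with earlier results of these data known.

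Deviations of same-numbered lists from their group means had correlations of -0.226 to 0.206. Lists with different numbers were not compared, so this does not settle whether the numbers pair the lists. The main fit used no block. With a block, 0.787% of all sites were called for KO against WT, in place of 0.541%. For the difference in the 1 h response it was 0.588% in place of 0.287%. Alternatives comprised list length, filters, depth, weights, overlap, the replicate block, windows and leaving out each list. Single summits and 15 lists (without the lists labelled 1-2 and KO 18 h replicate 1) were added after seeing the data. Python 3.11.15 with pandas 2.3.3 and numpy 2.4.6 was used for the rest.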

Additional observations from a re-analysis of the deposited data

Results flagged for a closer look

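The promoter of Neu1 was singled out because its 1 h response had opposite directions in the genotypes. All WT lists at 1 h (ranks 1376 and 1488) stood above all WT lists at 0 h (4363, 4781 and 4665), while all KO lists at 1 h (4476, 5022 and 4099) stood below all KO lists at 0 h (4072, 3051 and 3596). The KO response minus the WT response was -2.03 ± 0.41 (SE) on the log2 rank scale, with a limma adjusted p of 0.059. The difference passed the threshold in 4 of 27 other settings, without WT 1 h replicate 3 (-2.09, limma adjusted p = 0.024), which leaves a lone WT list at 1 h, without WT 18 h replicate 3 (0.048), without KO 18 h replicate 1 (0.045), and with only the 10000 best peaks (0.047). In the other 23 it did not. They include the exact permutation test, which was void for such differences. Among the 23 the difference was -0.75 with all deposited peaks (0.40), -1.77 with a depth covariate (0.58) and 0.55, in the other direction, where a peak had to cover 50% of the site (0.92). WT at 1 h had 2 lists, and they held 26558 and 49267 entries.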

How the results depend on the processing

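Of 128 member sites, 46 were called at 1 h and 36 at 18 h (35.9% and 28.1%, against 28.1% and 23.7% of all sites). The counts were 28 and 20 with the 10000 best peaks (37.8% and 27%, against 24.1% and 15.4%), 22 and 18 with only sites listed throughout (36.7% and 30%, against 27.5% and 19%), and 91 and 67 with single summits, which are more numerous (38.2% and 28.2%, against 27.3% and 22.3%). Where a peak had to cover 50% of the site, the 18 h count was 17 (13.3%, against 12.1%) and the 1 h count 38 (29.7%, against 20%). The split of 14 higher and 32 lower sites at 1 h became 2 and 36 at 50% cover and 6 and 60 with all deposited peaks, and that of 9 and 27 at 18 h became 3 and 14, and 3 and 50. With all deposited peaks 19.8% of the member sites were called at 1 h, against 18.4% of all sites, and 15.9% at 18 h, against 18.1%, so the higher share of called member sites nearly vanished at 1 h and turned round at 18 h. The exact permutation test gave 37 and 24 (28.9% and 18.8%, against 22.6% and 14.7%), and 15 lists gave 46 and 43 (36.5% and 34.1%, against 30.4% and 29.9%). Blocking on replicate number gave 33 and 37 (25.8% and 28.9%, against 20.7% and 23.1%), and 0 for genotype and both differences of responses. Leaving out single lists gave 38 to 50 at 1 h and 29 to 41 at 18 h. For KO against WT the count of 0 became 5 at 50% cover (3.91%, against 2.79%) and 0 to 6 without single lists. For the difference in the 1 h response it became 1 with the 10000 best peaks (1.35%, against 0.502%), 1 at 50% cover (0.781%, against 0.834%) and 0 to 4 without single lists, and for the 18 h response 1 with all deposited peaks (0.3%, against 0.241%), 1 with list weights (0.781%, against 0.369%), 3 at 50% cover (2.34%, against 1.91%) and 0 to 1 without single lists. The highest of these counts, 6 and 4, came without WT 1 h replicate 3 (4.72% and 3.15%, against 3.56% and 3.69%), and 2 sites in each were listed at 1 h only. The site downstream of Atp6v1e1 listed only at 18 h gave 1 of the 5 and 1 of the 3 calls at 50% cover and the call with list weights. Member genes with a promoter peak averaged 38.7 per list, 30.4 with the 10000 best peaks, 36.9 by the best summit alone and 38.6 to 38.9 without single lists. Peaks at the loci averaged 127, 63.3 with the 10000 best, 242 with all deposited and 124 to 128 without single lists.

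For 50 differences at named sites, 1308 values were recomputed. Of these 1187 kept direction and side of the threshold, 115 lost the call and 6 reversed, all at 50% cover. Per difference, 35 of the 50 lost the call in at least 1 setting, 6 reversed in 1, and 15 did neither in any. The reversed ones were Ctsk site 3 (-2.49), Hexa site 1 (-1.20), Neu1 site 3 (-0.27), Cln3 site 3 (-1.13) and Atp6v1a site 1 (-0.10) at 1 h, and Tfeb site 5 (-1.45) at 18 h. The cause was not tested. The number of peaks limits what can be ranked, and a site below rank 24389 cannot be told from a closed one.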
